A study of Mus musculus with 12 samples.

Results

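The EphA receptors are the ephrin-A-binding branch of the Eph receptor tyrosine kinases, and 9 genes encode them in the mouse, Epha1 to Epha8 and Epha10. All 9 were found by symbol among 21887 protein-coding genes of a RefSeq table for GRCm38.p6, the assembly behind mm10. Each was read as its gene body plus 20 kb on each side, and for Epha7 the surrounding gene desert was added out to 1 Mb from the gene. Acetylation of histone H3 at lysine 27 (H3K27ac), a mark of active promoters and enhancers, had been mapped in whole cortex of E15.5 mouse embryos by chromatin immunoprecipitation and sequencing of native, micrococcal nuclease-digested chromatin. The cKO group (3 libraries) carried Emx1Ires-Cre; Prdm16flox/flox, in which Cre is driven from Emx1, a gene of dorsal forebrain progenitors, and removes Prdm16, a zinc-finger chromatin regulator, from them and their descendants. The WT group (3 libraries) was Prdm16 flox/flox with no Cre named, so both groups carried the floxed allele and they differed also by the Cre allele itself. Whole cortex also holds cells outside the Emx1 lineage, such as interneurons, microglia and vessels, in which Cre is not expected to act, and in such bulk tissue fewer cells of a type and less acetylation per cell cannot be told apart. The labels name no embryo or litter for a replicate, and p-values therefore measure only the spread between these libraries, which may be technical.

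Eph receptors sit in the cell membrane and bind ephrins on neighbouring cells. Binding clusters the receptors, switches on their kinase and usually drives the growth cone or cell away, while the ephrin-bearing cell can receive a signal in return. In the developing cortex EphA receptors and ephrin-A ligands are laid down in gradients and take part in thalamocortical mapping, neuron migration and the sorting of cortical progenitors and their progeny.

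The authors deposited a broad peak list for each library. The lists held 59209, 58682 and 55015 peaks in cKO replicates 1, 2 and 3, against 66493, 75563 and 48168 in WT replicates 1, 2 and 3, and covered 63.5 to 72.9 Mb in cKO libraries and 53.9 to 92.1 Mb in WT libraries. WT replicate 2 was the longest list and WT replicate 3 the shortest. Read depth is unknown, so every level below is a length of sequence under peaks. A scaled covered length is that length multiplied by the factor that brings each list to the same total (0.998 to 1.145 for cKO lists, 0.79 to 1.35 for WT lists). Peak lists do not show whether Prdm16 was recombined, and the genotypes were taken from the labels. Library identifiers put replicates 1 and 2 of both genotypes in batch A and replicate 3 of both in batch B. The tissue label was read against marker promoters. The promoters of all 10 markers of the cortical excitatory lineage that had a promoter entry lay under a peak in every library, as did 5 of 7 for the ventral forebrain and interneurons. None of 3 for microglia, none of 3 for endothelium, none of 2 for meninges and none of 3 for organs outside the brain did so.

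Members differed in how regularly their promoter was marked. The annotated promoter window (250 bases before to 50 after the start) lay wholly under a peak in all 6 libraries for Epha3, Epha4, Epha5, Epha6 and Epha7. Counting any overlap with a peak in every library also gives 5 of 9 members (55.6%), against 55.9% of 17492 protein-coding genes with a promoter entry. The Epha10 window was covered in 4 libraries, by 0, 300 and 77 bp in cKO replicates 1, 2 and 3 and by 300, 300 and 0 bp in the WT replicates. The Epha2 peak began next to the start and reached 0 to 24 bp into the window in cKO libraries and 18 to 58 bp in WT libraries. The Epha1 window was touched in cKO replicate 1 and WT replicate 2 alone, and that of Epha8 in no library. The 250 bases before the start are given for 4 members, from RefSeq (GRCm38.p6), 5′ to 3′ on the gene's strand, with CpG dinucleotides in capitals. Epha5 (chr5:84417383-84417632, minus strand), Epha6 (chr16:60605532-60605781, minus strand) and Epha7 (chr4:28812881-28813130, plus strand, the upstream of 2 listed starts) are shown because they were marked in every library. Epha8 (chr4:136956817-136957066, minus strand) is shown because it was marked in none.
Epha5: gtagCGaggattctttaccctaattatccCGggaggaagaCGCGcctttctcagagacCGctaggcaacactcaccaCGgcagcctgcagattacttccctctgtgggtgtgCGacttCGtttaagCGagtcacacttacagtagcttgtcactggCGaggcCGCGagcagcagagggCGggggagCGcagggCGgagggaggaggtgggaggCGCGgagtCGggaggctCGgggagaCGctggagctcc
Epha6: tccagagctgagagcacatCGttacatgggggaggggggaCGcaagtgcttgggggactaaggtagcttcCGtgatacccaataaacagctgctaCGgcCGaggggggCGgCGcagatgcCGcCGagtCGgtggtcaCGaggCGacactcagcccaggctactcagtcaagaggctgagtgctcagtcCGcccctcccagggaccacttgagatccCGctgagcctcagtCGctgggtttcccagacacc
Epha7: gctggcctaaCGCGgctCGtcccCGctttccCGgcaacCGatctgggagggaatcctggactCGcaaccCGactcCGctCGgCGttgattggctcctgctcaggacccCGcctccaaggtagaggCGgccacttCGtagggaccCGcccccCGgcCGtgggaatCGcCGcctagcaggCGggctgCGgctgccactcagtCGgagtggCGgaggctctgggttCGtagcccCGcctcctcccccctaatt
Epha8: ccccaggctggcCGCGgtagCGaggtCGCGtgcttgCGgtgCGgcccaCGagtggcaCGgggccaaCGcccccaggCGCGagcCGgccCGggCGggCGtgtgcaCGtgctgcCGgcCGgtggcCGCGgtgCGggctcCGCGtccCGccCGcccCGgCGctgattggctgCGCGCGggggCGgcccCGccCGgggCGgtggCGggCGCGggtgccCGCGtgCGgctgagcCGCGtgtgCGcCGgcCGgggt
The Epha8 stretch holds 46 CpG, more than 99.6% of 21263 promoters, against 25 in Epha7, 20 in Epha5 and 15 in Epha6. Across all promoters the median was 10 CpG. It was 17 for promoters under a peak in all 6 libraries, 8 for those marked in 1 to 5 libraries and 2 for those under no peak. An unmarked CpG-rich start was uncommon. Of 87 promoters with at least as many CpG as Epha8, 8 (9.2%) were under no peak and 77 were marked in all 6 libraries. Of the other members, Epha10 had 17, Epha3 16, Epha4 14, and Epha1 and Epha2 9 each.

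Levels were compared between genes as the share of each window under peaks after scaling. Epha4, a receptor for both ephrin classes that acts in axon repulsion and cortical neuron migration, led the family with 24.5 ± 2.23% of its window covered (SD over all 6 libraries), at percentile 98.5 of all protein-coding genes. Epha3, an axon guidance receptor, followed with 7.47 ± 0.651%, and Epha10, whose kinase domain is catalytically inactive, had 7.29 ± 1.04%. Epha7, a receptor of the cortical gradients, had 5.23 ± 0.509%. Epha1, named as the founding member of the family, had 4.1 ± 0.523%. Epha2, studied mostly in epithelia, had 2.91 ± 0.668%, and Epha5, a receptor of axonal mapping, had 2.82 ± 0.374%. Epha8, known in the mouse from the developing midbrain, had 1.59 ± 0.657%, and Epha6, a brain-enriched receptor, had 0.688 ± 0.182%, at percentile 25.9. The Epha6 window was the longest, at 1009479 bp, and in both groups held more covered sequence than those of Epha1, Epha2 and Epha8. The median of all genes was 3.6%, with quartiles of 0.541% and 7.38%. Epha4 was above Epha3 in all 6 libraries and Epha10 above Epha7 in all 6, with ranges that did not overlap. Neighbours elsewhere in that order overlapped. Epha3 exceeded Epha10 in 3 of 6 libraries and Epha2 exceeded Epha5 in 3 of 6, so neither pair is ordered beyond its spread.

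**Figure D1:**
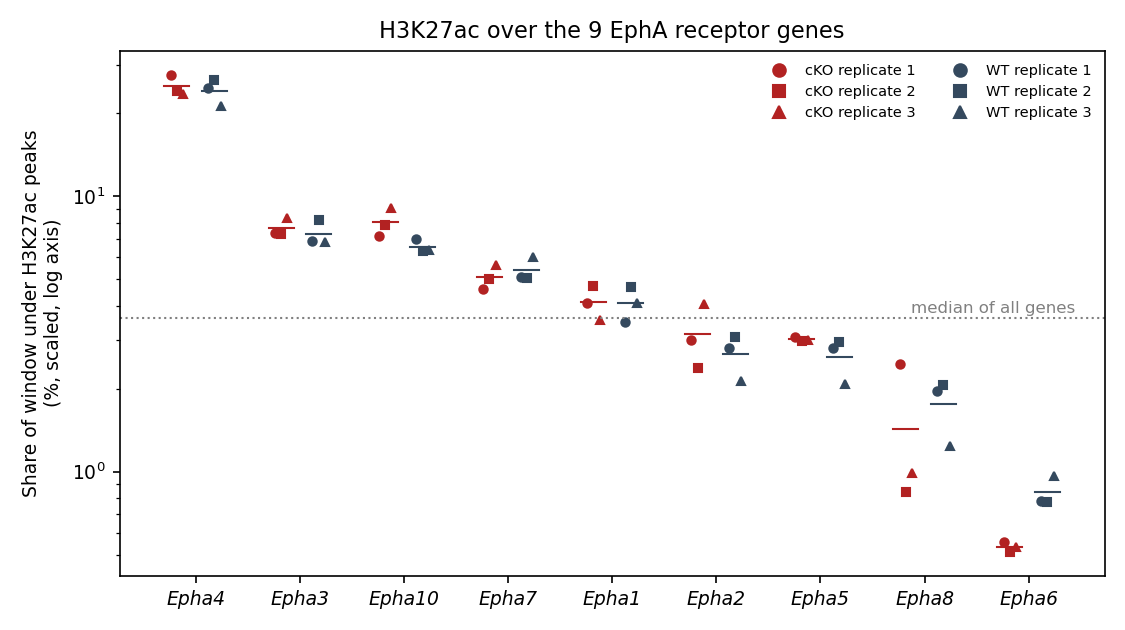
Share of each EphA window (gene body plus 20 kb on each side) under H3K27ac peaks after scaling, in percent on a log axis, for each of 3 cKO (red) and 3 WT (blue) libraries; short lines are group means and the dotted line is the median of all genes, 3.6%. Epha4 lies far above the rest at 24.5% over all 6 libraries, and Epha6 is the member whose cKO points all sit clear below its WT points.

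A wide domain at the start held a large part of the Epha4 level. The region at chr1:77493210-77517532, which spans 24323 bp and includes the promoter, was covered over 23000, 21946 and 20688 bp in cKO replicates 1, 2 and 3, against 24277, 23953 and 20607 bp in WT replicates 1, 2 and 3. These unscaled lengths overlap. Inside the Epha3 window lay 20 regions marked in every library, the most of any member. The strongest Epha5 peak, at its start (chr5:84412097-84418810), ranked at percentile 98.0 to 99.1 of its own list by the authors' −log10 q and also overlapped the predicted gene Gm42163. It averaged 6293 ± 152 bp in cKO and 6129 ± 902 bp in WT libraries (SD, n = 3 each). At Epha8 no peak lay in the gene body in any library, and its covered length came from 3 regions in the flanks. The strongest of these ranked at percentile 8.12 to 41.8 of its own list. At Epha1 1.14% of the covered length lay in the gene body. The strongest peak of that window lay in the neighbouring gene Zyx, which encodes a focal adhesion protein. At Epha10 45.8% lay in the gene body, and its strongest peak was in Maneal.

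The main comparison asked whether the cKO and WT groups differed over these loci. Epha6 fell in cKO cortex, and no other member passed the test. Its scaled covered length was 5594, 5172 and 5382 bp in cKO replicates 1, 2 and 3, against 7920, 7863 and 9710 bp in WT replicates 1, 2 and 3. Every cKO library lay below every WT library, as at 4.54% of all genes tested. The means were 5383 ± 211 bp in cKO and 8498 ± 1051 bp in WT (SD, n = 3 each). The log2 change on the scale of scaled bp + 500 was −0.61 ± 0.11 (SE), with a 95% interval of −0.85 to −0.36 (limma with batch as covariate, Benjamini-Hochberg adjusted p = 0.0337). Across all 15359 genes tested, 106 (0.690%) passed the same rule, 57 longer and 49 shorter in cKO (4 and 14 with quantile normalization, 1 and 0 without scaling). Within batches the cKO minus WT difference was −2508 bp in A and −4329 bp in B. The Epha6 call was lost, with the same direction, without cKO replicate 3 (limma adjusted p = 0.169) or without WT replicate 1 (0.0606), 2 (0.116) or 3 (0.173). It was also lost in 8 further settings, among them no batch covariate (0.0776) and lists of equal length (0.0541).

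The shorter coverage of Epha6 lay inside the long gene and away from its promoter. This split was made after the values had been seen, and its parts carry no test. The region over the promoter (chr16:60604866-60607145) had 2022 ± 126 bp scaled in cKO and 2061 ± 392 bp in WT (SD, n = 3 each), a ratio of 0.982. The region in the flank, inside the ciliary GTPase gene Arl6, had 1484 ± 60 bp in cKO and 1363 ± 327 bp in WT, a ratio of 1.09. The other 11 regions, all inside the gene, together had 2052, 1860 and 1717 bp in cKO replicates 1, 2 and 3, against 4759, 4984 and 5480 bp in WT replicates 1, 2 and 3. That is 1876 ± 168 bp in cKO and 5074 ± 369 bp in WT, a ratio of 0.37. The authors' −log10 q at the 11 regions ran from 1.6 to 9.7, in lists whose lowest values are 1.31 to 1.39. The ratio is one of covered length and not of peak height. A peak was present at 3, 4 and 2 of these 11 regions in the cKO libraries and at 8, 9 and 5 in the WT libraries. Of the 11, 4 were seen in 1 list only, that of WT replicate 1 or of WT replicate 2, the longest lists. The region chr16:59832110-59832771 was seen in those lists alone. Such regions exist through WT peaks and can count only for WT, so the counts are partly set by how regions were built. Without scaling the sums were 2056, 1810 and 1500 bp in cKO and 5448, 6309 and 4058 bp in WT. In these unscaled sums WT replicate 3, the shortest list of the series, was above every cKO library. The part of list length in the difference was not tested.

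**Figure D2:**
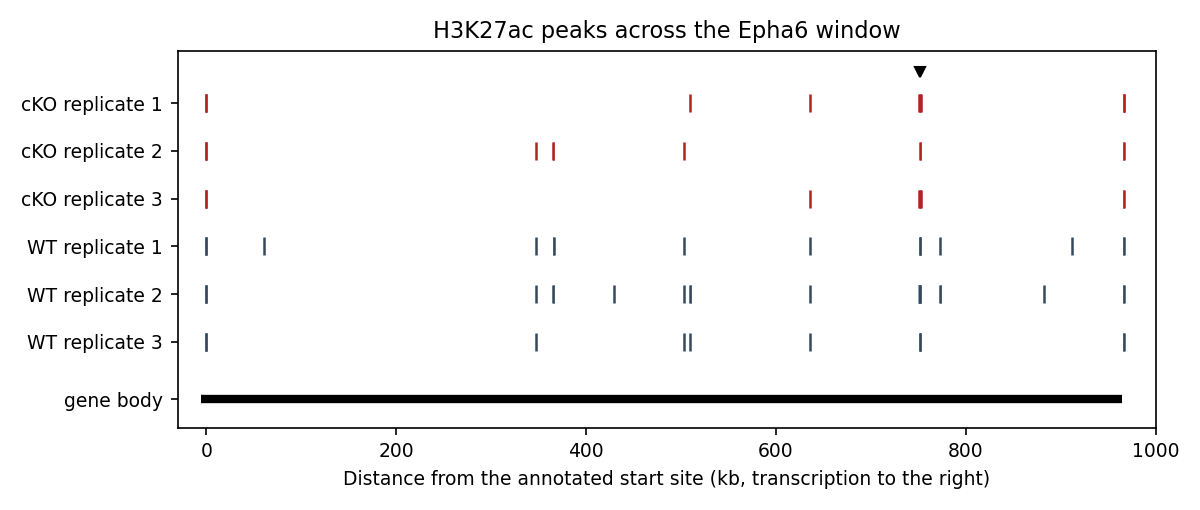
H3K27ac peaks across the Epha6 window, 1 row per library (cKO above WT), against distance from the annotated start site in kb with transcription to the right; each tick is a called peak drawn at a minimum visible width, and the triangle marks the region 751.4 kb downstream. Peaks at the start and at the far end appear in all 6 rows, and between them the WT rows have a peak at 8, 9 and 5 of 11 regions against 3, 4 and 2 in the cKO rows. Some of the 11 were seen only in the lists of WT replicates 1 and 2, the longest, and can count only for WT.

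The widest of the 11 was marked in every library. At chr16:59852744-59855579, 751.4 kb downstream of the start site, its unscaled length was 1254, 850 and 1189 bp in cKO replicates 1, 2 and 3, against 2445, 2816 and 2386 bp in WT replicates 1, 2 and 3. The groups stayed well apart, at 1098 ± 217 bp in cKO and 2549 ± 233 bp in WT (SD, n = 3 each), a ratio of 0.431. The authors' −log10 q at this region was 2.7, 3.7 and 3.7 in cKO replicates 1, 2 and 3, against 5.3, 6.3 and 4.3 in WT replicates 1, 2 and 3. The 20 kb tile that holds it (chr16:59840001-59860000) had a log2 change of −0.86 ± 0.14 (SE) and was shorter in cKO (limma, adjusted p = 0.0493). It was the only tile in the 9 windows or the Epha7 desert to pass, against 121 of 24179 tiles genome-wide (0.500%), of which 70 were shorter in cKO (0.290%). That call was lost in 10 of 14 alternatives, which include leaving out any of cKO replicates 2 and 3 and WT replicates 1, 2 and 3 (limma adjusted p from 0.0886 to 0.21), with the same direction in all 14.

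Marker genes of microglia and meninges, cell types outside the Emx1 lineage, were shorter in sum in every cKO library than in any WT library, though not marker by marker. The summed scaled length over 5 microglial markers was 7924 to 8971 bp in cKO and 9245 to 10234 bp in WT, and over 5 meningeal markers 7314 to 8546 bp in cKO and 9191 to 10805 bp in WT. Neither pair of ranges overlapped, but the microglial pair did without Cx3cr1 (7924 to 8971 bp in cKO, 7557 to 9038 bp in WT) or Csf1r, and the meningeal pair without Dcn (7314 to 8205 bp in cKO, 8074 to 9989 bp in WT) or Col1a1. At 4.54% of the single genes tested every cKO library lay below every WT library, and no such share was drawn for sums of markers. The microglial receptor gene Cx3cr1 had 0, 270 and 0 bp in the cKO libraries and 1689, 1221 and 724 bp in the WT libraries. Aif1, which held most of the microglial length, averaged more in cKO, at 6541 ± 669 bp against 5991 ± 1200 bp in WT (SD, n = 3 each), and so did the meningeal markers Lum and Foxc1. No marker of either list was at 0 in all 6. None of the 2 microglial and 2 meningeal markers long enough to test passed. For 5 endothelial markers the sums overlapped (11275 to 12726 bp in cKO, 9340 to 13587 bp in WT), and 1 of the 5, Tek, was at 0 in every library. Over 12 cortical excitatory markers they were 305450 to 330735 bp in cKO and 268752 to 364966 bp in WT, and over 9 ventral forebrain and interneuron markers 148082 to 165199 bp in cKO and 121209 to 172201 bp in WT. The part of these cell types in the Epha6 result was not tested.

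Among the other 8 members, groups did not overlap at Epha10 and Epha5, both longer in cKO, and neither passed. Of all genes tested, 7.08% had every cKO library above every WT library and 4.54% every cKO library below. Epha10 had 5461, 5991 and 6910 bp scaled in cKO replicates 1, 2 and 3, against 5326, 4822 and 4844 bp in WT replicates 1, 2 and 3. Its means were 6120 ± 733 bp in cKO and 4997 ± 285 bp in WT (SD, n = 3 each), a log2 change of 0.26 ± 0.12 (SE; limma, adjusted p = 0.477). That change was 0.16 without replicate 3 of either genotype, 0.50 when the −log10 q had to reach 5 and 0.63 over the gene body alone, and it passed in none of the alternatives. Epha10 and Epha6 were the 2 members with an unadjusted p below 0.05, a level that 9.95% of all genes reached. Inside Epha10, the region at chr4:124898348-124900175, 17.5 kb downstream of the start, was longer in every cKO library. Its unscaled length was 1349, 1718 and 1643 bp in cKO replicates 1, 2 and 3, against 633, 1247 and 469 bp in WT replicates 1, 2 and 3. Another region in that window, in Cdca8 and 9930104L06Rik, ran the other way unscaled, at 1486 ± 68 bp in cKO and 1708 ± 160 bp in WT, but its groups overlapped after scaling.

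Epha5 had 12464, 12018 and 12089 bp scaled in cKO replicates 1, 2 and 3, against 11321, 11922 and 8384 bp in WT replicates 1, 2 and 3. The gap between the closest libraries was narrow, and WT replicate 3 was the low value. The means were 12190 ± 240 bp in cKO and 10542 ± 1893 bp in WT (SD, n = 3 each), a log2 change of 0.22 ± 0.12 (SE; limma, adjusted p = 0.605). Batch A gave a difference of 619 bp and batch B one of 3704 bp, and without replicate 3 of either genotype the log2 change was 0.07. The WT libraries differed among themselves at a region 152.3 kb downstream of the start (chr5:84263925-84266236), with 2041, 1951 and 2050 bp unscaled in cKO replicates 1, 2 and 3 and 2272, 849 and 232 bp in WT replicates 1, 2 and 3. Those groups overlapped.

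At the remaining 6 members the groups overlapped and no change passed. Epha4, the member with the most covered sequence, had 51851, 45071 and 43982 bp scaled in cKO replicates 1, 2 and 3, against 46345, 49347 and 39857 bp in WT replicates 1, 2 and 3. Its log2 change was 0.06 with a 95% interval of −0.19 to 0.3 (limma, adjusted p = 0.898). Epha3 averaged 27610 ± 2051 bp in cKO and 26270 ± 2866 bp in WT (log2 change 0.07, interval −0.19 to 0.34, limma adjusted p = 0.88). Epha7 averaged 9875 ± 1000 bp in cKO and 10467 ± 1088 bp in WT (log2 change −0.08, interval −0.31 to 0.15, limma adjusted p = 0.862). The intervals at these 3 genes reach to both sides of 0, and an absence of change is not shown. Epha1 averaged 2256 ± 312 bp in cKO and 2236 ± 329 bp in WT, nearly all of it in Zyx. Epha2 averaged 2148 ± 577 bp in cKO and 1820 ± 326 bp in WT, a log2 change of 0.18 with an interval of −0.17 to 0.53 (limma, adjusted p = 0.79). In lists cut to equal length that change was 1.03 and passed (limma, adjusted p = 0.0277), with 2022, 1597 and 2639 bp in cKO replicates 1, 2 and 3, against 643, 443 and 1323 bp in WT replicates 1, 2 and 3. Epha8 averaged 962 ± 599 bp in cKO and 1184 ± 306 bp in WT, and its interval was the widest of the family (−0.69 to 0.16). All 9 members passed the filter of a mean of 1000 bp. Their median log2 change was 0.06, with 6 positive and 3 negative, against 0.05 over all genes tested (10026 positive, 5333 negative); the signs at Epha1, Epha3 and Epha4 turned without scaling, and that at Epha1 also with quantile normalization and with scaling to the summed gene windows.

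**Figure D3:**
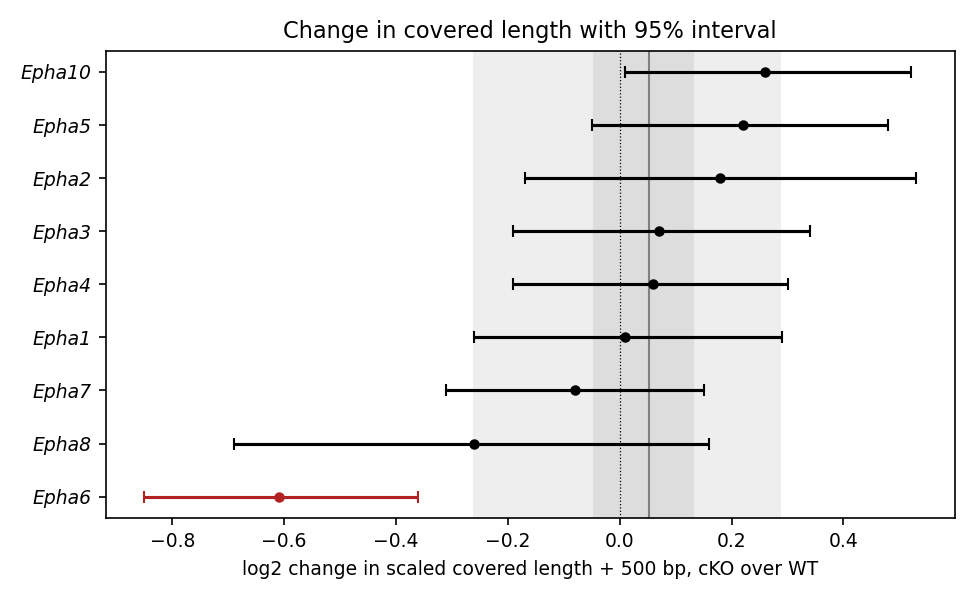
log2 change of scaled covered length + 500 bp, cKO over WT, with its 95% limma interval for the 9 EphA members; the grey line is the median of all genes (0.05), the dark band their middle range (−0.05 to 0.13) and the light band their 5 to 95 percentile range (−0.26 to 0.29). Epha6, in red at −0.61, is the member whose interval lies wholly outside the light band.

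Merging the peaks of all 6 lists gave 123 regions in the 9 windows. Every library marked 54 of them (43.9%, against 46.4% of all 85907 regions), and 32 (26.0%, against 21.2%) were seen in 1 list only, 19 times that of WT replicate 2. No region in the 9 windows was marked in all 3 libraries of 1 genotype and in none of the other. Genome-wide 779 regions were WT-only (0.907%) and 298 cKO-only (0.347%), shares so low that none among 123 does not set these windows apart. That genome-wide balance turned in lists of equal length (629 cKO-only and 580 WT-only) and without WT replicate 2 (1016 cKO-only and 876 WT-only). Among the 54 shared regions, unscaled length was greater in every cKO library than in any WT library at 2 and smaller at 3. Of 39882 regions shared genome-wide, 2.89% and 5.94% met those rules. Both longer regions, at Epha10 (above) and at Epha3 (chr16:63621765-63622339, 444 ± 117 bp in cKO and 221 ± 82 bp in WT), had a ratio of 2.01. The shorter ones were those at Epha6 and in Cdca8 described above, and a region 89.0 kb into Epha7 (chr4:28901370-28902818, 993 ± 119 bp in cKO and 1303 ± 121 bp in WT, a ratio of 0.763). After scaling, the groups overlapped at the Cdca8 and Epha7 regions and stayed apart at the Epha6, Epha10 and Epha3 regions. The median ratio over the 54 was 0.987, against 0.966 genome-wide.

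**Figure D4:**
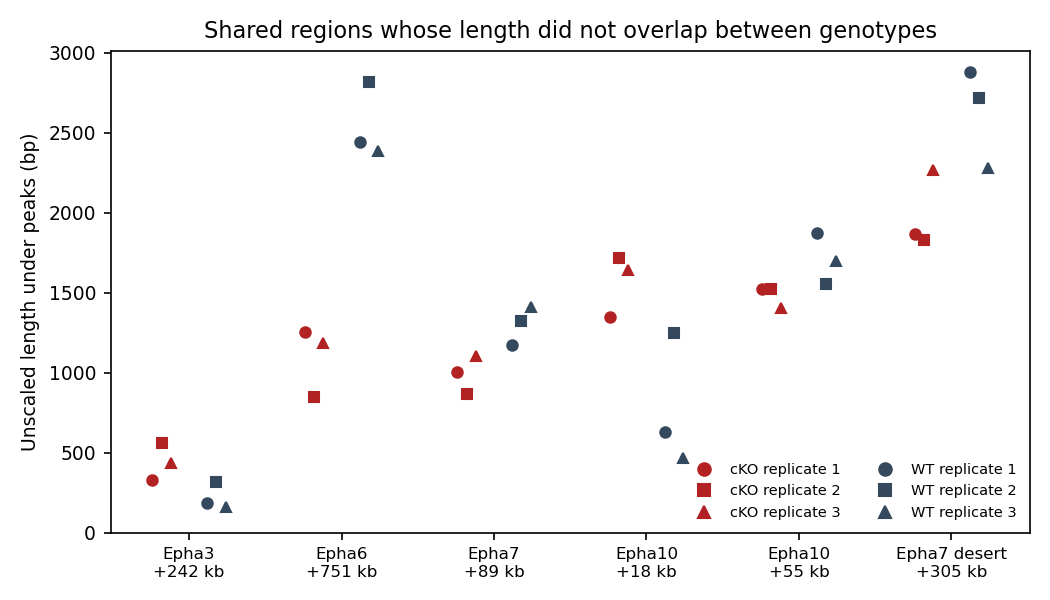
Unscaled length under peaks, in bp, of the regions marked in all 6 libraries whose cKO (red, left) and WT (blue, right) values did not overlap, 5 in the EphA windows and 1 in the Epha7 desert, named by distance from the start site. The widest separation is at Epha6 +751 kb, with 850 to 1254 bp in cKO and 2386 to 2816 bp in WT libraries.

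Epha7 stands alone in its part of chromosome 4. The nearest protein-coding genes were Manea, 2466148 bp away on the low-coordinate side, and Map3k7, 2995989 bp away on the other. The peak over the Epha7 start (chr4:28812180-28816328) differed little between groups, at 3973 ± 47 bp unscaled in cKO and 4007 ± 151 bp in WT (SD, n = 3 each). In the desert from 20 kb to 1 Mb on both sides, 0.299% of the sequence was under peaks, against 2.67% of the genome. The scaled covered length there was 4607, 3785 and 5334 bp in cKO replicates 1, 2 and 3, against 7221, 8562 and 5616 bp in WT replicates 1, 2 and 3. After scaling every cKO library was below every WT library, though cKO replicate 3 and WT replicate 3 were close. Without scaling the groups overlapped (exact permutation p = 0.3). The unscaled lengths were 4616, 3684 and 4660 bp in cKO replicates 1, 2 and 3, against 8266, 10838 and 4159 bp in WT replicates 1, 2 and 3. The means were 4575 ± 775 bp in cKO and 7133 ± 1475 bp in WT (SD, n = 3 each; two-sided exact permutation p = 0.1, the smallest that 20 assignments allow). The difference of −2558 bp was −3695 bp within batch A and −283 bp within batch B.

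The desert difference stood mostly on the high-coordinate side, downstream of the gene. There the scaled length was 2234 ± 627 bp in cKO and 4145 ± 772 bp in WT, a difference of −2693 bp within batch A and −347 bp within batch B. On the low-coordinate side it was 2341 ± 418 bp in cKO and 2988 ± 717 bp in WT, a difference of −1003 bp within batch A and 64 bp within batch B, so its sign was not shared by the batches. The desert held 19 regions. Every library marked 4 of them (21.1%, against 46.4% of all regions), and 8 (42.1%, against 21.2%) were seen in 1 list only, 6 times that of WT replicate 2. The region chr4:29116693-29119570 was shared by all and, unscaled, shorter in every cKO library (1989 ± 243 bp in cKO, 2627 ± 309 bp in WT), as at 5.94% of shared regions genome-wide. After scaling, the 20 kb tile that holds it overlapped between groups (limma adjusted p = 0.512). It had 1866, 1878 and 2596 bp in cKO replicates 1, 2 and 3, against 2514, 2150 and 3082 bp in WT replicates 1, 2 and 3. Of the 19 desert regions 2 were WT-only, against 0.907% genome-wide, and none was cKO-only. Desert regions were marked less regularly than regions genome-wide, so that share is not a like background. When the −log10 q had to reach 5, 1 WT-only region was left, and 1 where peaks had to cover 50% of a region. The region 867126 bp from Epha7 (chr4:27945531-27945940) had 410, 318 and 351 bp in WT replicates 1, 2 and 3, with the authors' −log10 q at 9.1, 5.5 and 6.2. The region 432462 bp away (chr4:29399965-29400480) had 448, 506 and 166 bp, with −log10 q at 1.7, 3.3 and 4.8.

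**Figure D5:**
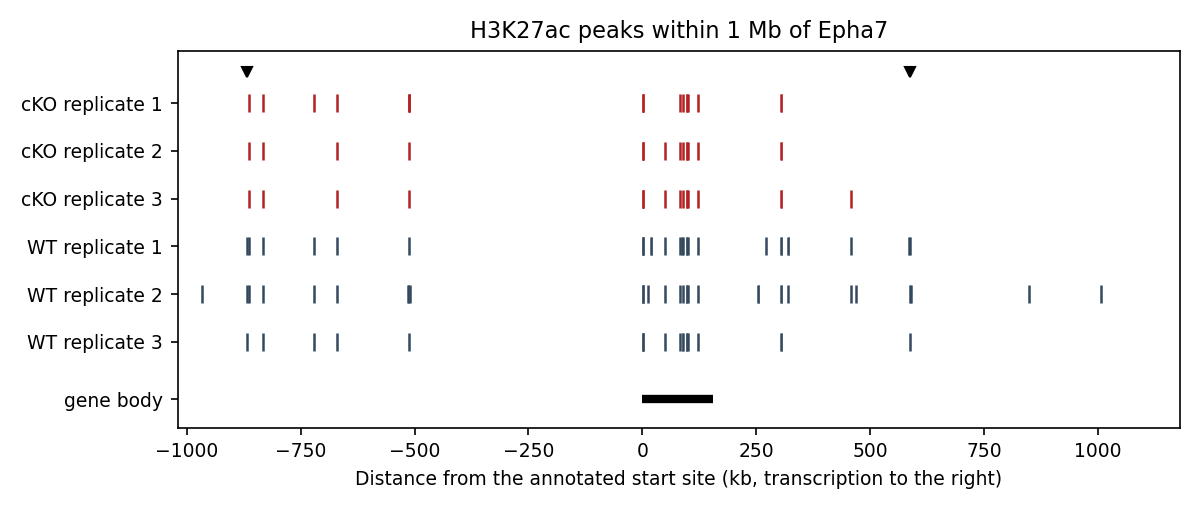
H3K27ac peaks within 1 Mb of Epha7, 1 row per library (cKO above WT), against distance from the annotated start site in kb with transcription to the right; each tick is a called peak drawn at a minimum visible width, and triangles mark the 2 WT-only regions. The cluster of peaks over the gene appears in every row, while the desert holds 7, 5 and 6 peaks in the cKO rows and 12, 17 and 7 in the WT rows.

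Other genes of the pathway were read in the same fit from lists of their known roles, and none passed. Among 5 EphB receptors, which bind mostly ephrin-Bs, 3 changes were positive and 2 negative, with a median of 0.08 on the log2 scale. Ephb3 had 4350, 5111 and 4078 bp scaled in cKO replicates 1, 2 and 3, against 3515, 3940 and 3618 bp in WT replicates 1, 2 and 3 (log2 change 0.25, limma adjusted p = 0.488). Every cKO library was above every WT library, as at 7.08% of all genes. Ephb4, known from vessels, had a log2 change of 0.23 (limma adjusted p = 0.585) and Ephb1 one of −0.13 (adjusted p = 0.789). Among the 8 ephrins, the ligands of the family, 5 were positive and 3 negative with a median of 0.02, and none had an unadjusted p below 0.05. Those with the smallest p were Efna5, the main ephrin-A of cortical maps, at −0.17 (limma adjusted p = 0.711), Efnb3, a midline guidance ligand, at 0.15 (0.739) and Efna1 at −0.14 (0.743). Every EphB receptor promoter, 5 of 5, and every ephrin promoter in the table, 7 of 7, lay under a peak in all 6 libraries. The EphA promoters, at 5 of 9 (55.6%), were near the 55.9% of all genes with a promoter entry.

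Among 27 signalling partners 15 changes were positive and 12 negative, with a median of 0.02 and 5 with an unadjusted p below 0.05, a level reached by 9.95% of all genes. The smallest p was at Rasa1, which encodes a Ras GTPase-activating protein bound by activated Eph receptors. It had 2793, 3212 and 3610 bp scaled in cKO replicates 1, 2 and 3, against 4761, 4805 and 4279 bp in WT replicates 1, 2 and 3, with every cKO library below every WT library, as at 4.54% of all genes. Its log2 change was −0.47 ± 0.12 (SE; limma, adjusted p = 0.119). Ngef, the gene of ephexin, which EphA receptors bind, was at 0.32 (limma adjusted p = 0.308), and Kalrn, the gene of kalirin, at 0.29 (0.365).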

How the data were processed

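The data are 6 deposited H3K27ac peak lists, 3 cKO and 3 WT; the 6 input libraries were not analysed here. The submitters' processing notes name FastQC, cutadapt, Bowtie2 2.2.8, MACS2 2.1.1 and mm10, with no roles, parameters or use of input given in the sources read. Per peak, each deposited list gives a position, a fold enrichment ratio, −log10 p and −log10 q and an unused display score, as the authors' peak caller wrote them. Its −log10 q starts at 1.31 to 1.39. Covered length counts bases under peaks whatever their height, and moves with depth and precipitation.

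Covered length per gene window was scaled to each list's total on the main chromosomes, converted to log2(bp + 500 bp) and fitted with limma 3.58.1 in R 4.3.3 (lmFit and eBayes, no trend or robust option, batch as covariate). Genes and 20 kb tiles with a mean of 1000 bp or more entered. A call is an adjusted p (Benjamini-Hochberg, over all entered) below 0.05, and every adjusted p is from limma. Overlapping or touching peaks of the 6 lists were merged into regions, and any overlap of at least 1 bp placed a library in a region. The desert total alone had an exact permutation test. Tables and figures were made with Python 3.11.15, pandas 2.3.3, numpy 2.4.6, scipy 1.17.1 and matplotlib 3.10.9. Positions carry no exon or intron, which the RefSeq table used does not give, and no genome was used here for sequences of peaks. Scripts were tested on simulated data.

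The members and lists were chosen with earlier results of these data known. Named were all 9 members, EphB receptors and ephrins with an unadjusted p below 0.05 or, if fewer than 3, the 3 with the smallest p, up to 3 partners, and each one-genotype region and strongest peak; other regions and markers were named after their values were seen. As alternatives, peaks needed a −log10 q of 5, lists were cut to equal length, libraries were left out singly, the batch term was dropped or replaced by a replicate block, pseudocounts were 100 or 2000 bp, the filter or the scaling was dropped, values were quantile normalized, windows were the gene body, the body plus 100 kb or 2 kb around gene ends, the desert ended at 500 kb, peaks had to cover 50% of a region, or regions were merged across 1 kb. Scaling to the summed gene windows was added after seeing the data.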

Additional observations from a re-analysis of the deposited data

How the results depend on the processing

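The Epha6 log2 change kept its sign under all 18 alternatives that gave a value (it was not tested in 2 kb around the gene ends). Its call held with the replicate block (−0.61, adjusted p = 0.0242), a pseudocount of 2000 bp (0.0071), the gene body (0.0211) and scaling to gene windows (0.0458), and without cKO replicate 1 (0.0101) or 2 (0.023). It was lost at −log10 q of at least 5 (−0.88, adjusted p = 0.433), in equal-length lists (−0.58), without batch covariate (−0.61), with a pseudocount of 100 bp (−0.64, 0.0719), no filter (−0.61, 0.109), no scaling (−0.71, 0.404), quantile normalization (−0.65, 0.0575) and body plus 100 kb (−0.43, 0.0703). Leaving out 1 library gave −0.66 to −0.51, with adjusted p from 0.0101 to 0.173. Without replicate 3 of either genotype the other replicate 3 is alone in its batch and no longer informs the estimate. EphA genes called numbered 0 in every setting where Epha6 was lost, and with 2 kb around gene ends, except equal-length lists, where Epha2 was the 1 called. Leaving out a library gave 0 to 1.

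Genes called numbered 38 at −log10 q of at least 5, 58 in equal-length lists, 39 without batch covariate, 168 with the replicate block, 39 and 208 with pseudocounts of 100 and 2000 bp, 23 without filter, 1 without scaling, 18 with quantile normalization, 42 in gene bodies and 42 with scaling to gene windows. Leaving out 1 library gave 2 (cKO replicate 3) to 232 (cKO replicate 1), with 228 without cKO replicate 2, 83, 6 and 3 without WT replicates 1, 2 and 3. For tiles the counts in the same order were 76, 68, 76, 183, 31, 189, 55, 0 and 39, and 0 (WT replicate 3) to 217 (cKO replicate 1) with a library left out. WT-only regions numbered 390 at −log10 q of at least 5, and 876 to 4494 with a library left out (4494 without WT replicate 3, 1307 and 1177 without cKO replicates 1 and 2). cKO-only regions numbered 629 in equal-length lists (with 580 WT-only) and 310 to 1016 with a library left out (1016 without WT replicate 2, 476, 484 and 649 without cKO replicates 1, 2 and 3). Fewer lists must then hold or lack a peak. In the EphA windows 1 region at Epha3 became cKO-only at −log10 q of at least 5, 1 at Epha6 became WT-only in equal-length lists, 2 were WT-only with 50% coverage of a region, and up to 5 with a library left out. The desert difference was −3488 to −1650 bp with exact permutation p from 0.1 to 0.3 and kept its sign under all 10 alternatives. The Epha6 tile was lost without batch covariate (adjusted p = 0.103), with a pseudocount of 100 bp (0.0938), no filter (0.144), no scaling (0.245) and quantile normalization (0.0878). Epha5, at 0.22, was 0.40 at −log10 q of at least 5, 0.11 without scaling and 0.12 in 2 kb around gene ends; Epha10 was 0.16 without scaling; neither passed in any setting.

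Signs turned only in changes that did not pass in the main fit, though among them Epha2 passed in equal-length lists. Epha1 was at −0.08 without scaling, −0.04 with quantile normalization and −0.01 with scaling to gene windows. With a library left out Epha1 was at −0.11 to 0.10, below 0 without WT replicate 1 or cKO replicate 2 (−0.06). Epha3 was at −0.04 without scaling and −0.03 (without replicate 3 of either genotype) to 0.18 with a library left out. Epha4 was at −0.05 without scaling and −0.12 at −log10 q of at least 5. Epha2 was at −0.10 (without replicate 3 of either genotype) to 0.33 with a library left out. Epha7 was at 0.06 in 2 kb around gene ends. Epha8 was at −0.30 to 0.04 with a library left out, above 0 without cKO replicate 2. The causes were not tested. The replicate block changed no other EphA call. Deviations of same-numbered libraries correlated at 0.132, 0.063 and 0.261, and cKO replicate 1 correlated more with WT replicate 2 (0.167), so the numbers were not taken as pairs.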
